A study of Mus musculus with 7 samples.

Results

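The Myc network was described here through the open chromatin of 8 genes: Myc, its partner Max, the Max-binding antagonists Mxd1, Mxi1 and Mnt, the ubiquitin ligase gene Fbxw7, and the Myc target genes Odc1 and Nolc1. The genes were set by name, out of 21887 protein-coding genes. A peak was given to one of them when its midpoint lay inside the gene body, or within 100 kb of it with that gene as the nearest protein-coding gene on mm10. This gave 1053 of the 975394 peaks of the series. Overlapping or touching peaks of the 7 libraries were joined into regions, 351 of 344401 for these genes.

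Myc is a basic helix-loop-helix leucine zipper factor that binds DNA as a pair with Max, mostly at the E-box CACGTG, and raises transcription of genes for growth, ribosome production and metabolism. Mxd1, Mxi1 and Mnt also pair with Max, bind the same E-box and recruit Sin3 corepressors, so that they oppose Myc. Myc protein is short-lived, and Fbxw7 is the substrate-binding subunit of a ubiquitin ligase that marks it for degradation. The Myc gene is known to depend on distant enhancers, and RANKL is known to raise Myc in osteoclast precursors.

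The assay was ATAC-seq, in which a transposase cuts and tags DNA that is free of packed nucleosomes. The cells were of the mouse line RAW264.7, which derives from monocytes and turns osteoclast-like under the cytokine RANKL. The study asked how RANKL and the BET inhibitor I-BET act on early osteoclast development. There were 4 groups: untreated cells (2 libraries), cells given RANKL at 50 ng/ml (2 libraries), cells given the same RANKL with I-BET at 500 nM (2 libraries), and cells given I-BET at 500 nM without RANKL (1 library, numbered 2). Treated cells were taken after 4 h. All groups were the same line, and the labels name neither a vehicle nor the I-BET compound. Nothing in the labels says that the replicates were separate cultures, so p-values measure only the spread between these libraries, which may be technical.

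The lists held 117175 to 166369 peaks. Untreated replicate 1 stood apart: its deposited −log10 q reached 5 in 25.3% of peaks, against 36.8% to 74.0% in the other 6, and 42.9% of its regions had no call elsewhere, against 8.95% to 27.1%. RANKL + I-BET replicate 2 had the longest list and the highest share of strong peaks, 74.0%. A peak within 1 kb of a gene end was present in all 7 libraries at 9 of 9 macrophage markers, and at 1 of 5 B lymphocyte, 1 of 5 T lymphocyte and 1 of 5 fibroblast and osteoblast markers. The T lymphocyte gene Cd8a and the fibroblast genes Pdgfra and Dcn had no such peak in any library. The lists carry no read depth. The deposited −log10 p, q and fold values are the authors' own. The −log10 p and q values grow with depth, so −log10 p served to rank peaks within a list. Where a −log10 q of at least 5 was asked for, the same limit was set on lists of unlike depth, and the shares past it carry that difference.

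The promoters below show the DNA of the network on which E-boxes were searched. They are RefSeq sequences of GRCm38.p6, each running from 250 bases before the start site to 25 bases after it, 5′ to 3′ on the gene's strand, with CACGTG in capitals. Max (chr12:76962224-76962498, minus strand) and Mnt (chr11:74830674-74830948, plus strand) are shown because their windows hold an E-box, and Odc1 (chr12:17544623-17544897, plus strand) and Nolc1 (chr19:46075597-46075871, plus strand) because they are the 2 target genes.
Max: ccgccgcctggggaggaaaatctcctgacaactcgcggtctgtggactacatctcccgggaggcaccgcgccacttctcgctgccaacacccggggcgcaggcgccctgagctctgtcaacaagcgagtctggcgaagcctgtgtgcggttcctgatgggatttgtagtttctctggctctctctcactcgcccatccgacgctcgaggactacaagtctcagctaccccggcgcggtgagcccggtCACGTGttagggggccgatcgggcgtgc
Mnt: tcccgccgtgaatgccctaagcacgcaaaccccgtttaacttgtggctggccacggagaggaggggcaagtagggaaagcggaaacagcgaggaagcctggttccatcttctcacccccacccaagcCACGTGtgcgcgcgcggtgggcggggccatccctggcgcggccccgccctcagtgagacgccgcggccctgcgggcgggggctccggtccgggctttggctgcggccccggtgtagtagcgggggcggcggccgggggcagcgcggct
Odc1: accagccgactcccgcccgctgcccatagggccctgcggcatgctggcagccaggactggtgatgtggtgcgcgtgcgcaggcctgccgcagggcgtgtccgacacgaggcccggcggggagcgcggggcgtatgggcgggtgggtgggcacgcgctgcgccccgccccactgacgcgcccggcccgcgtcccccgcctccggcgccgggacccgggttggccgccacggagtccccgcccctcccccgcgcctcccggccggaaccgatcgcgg
Nolc1: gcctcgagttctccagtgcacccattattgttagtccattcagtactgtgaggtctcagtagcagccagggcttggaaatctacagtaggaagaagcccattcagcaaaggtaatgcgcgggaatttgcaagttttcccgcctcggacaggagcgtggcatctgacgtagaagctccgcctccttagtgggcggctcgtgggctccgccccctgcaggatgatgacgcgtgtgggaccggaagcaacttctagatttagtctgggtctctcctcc

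Promoter entries were found for 7 of the 8 genes, all but Myc, with 11 start-site windows. Each window of 300 bases was searched on both strands for CACGTG and for TGANTCA, the AP-1 motif, and the motifs do not overlap. Max held 1 CACGTG whose first base lies at position −3 from the start site, and Mnt held 1 at −123. The other 9 windows held none, and none of the 11 held TGANTCA. Over all 32851 windows that were listed, 7.15% held CACGTG and 7.81% held TGANTCA. Where these letters are absent, only this window is meant.

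Most start sites of the network lay under a peak in every library. Of the 11 windows 9 overlapped a peak in all 7 libraries, against 37.0% of all windows (12150 of 32851). Windows with CACGTG did so in 55.7% of cases and windows without it in 35.5%. The other 2 windows belong to downstream starts of Fbxw7: one had a peak in 0 libraries and one in 2, untreated replicate 1 and RANKL replicate 2. The first start of Fbxw7 lay in chr3:84813624-84816599, which ranked within the top 0.0366% to 0.0824% of peaks by −log10 p in the 7 lists. It was thus among the strongest peaks of each list.

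The start regions of Max and its other partners also ranked high. The region of Max (chr12:76960829-76963332) stood in the top 0.237% to 0.548% of the lists, that of Mxd1 (chr6:86668185-86670084) in the top 0.320% to 0.812%, and that of Mnt (chr11:74827688-74835322) in the top 0.295% to 0.862%. Mxi1 has 3 listed starts in 2 regions, chr19:53309561-53315934 (top 3.31% to 7.35%) and chr19:53329010-53332766 (top 1.67% to 3.59%). The starts of the target genes ranked lower than those of Max, Mxd1 and Mnt in every list, at 0.829% to 6.22% for Odc1 (chr12:17543913-17546684) and 1.98% to 6.78% for Nolc1 (chr19:46075246-46077339). None of these start regions was missing from a library of any treatment.

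Across the 8 genes 52 of 351 regions (14.8%) were called in all 7 libraries and 185 (52.7%) in 1 library. Over all regions of the series these shares were 12.5% and 55.6%. Fbxw7, a long gene of 164209 bp, held 141 regions, Myc 52, Odc1 45, Max 40, Mxi1 37, Mxd1 17, Nolc1 10 and Mnt 9. The share called in all 7 libraries ran from 10.0% at Nolc1 (1 of 10) to 41.2% at Mxd1 (7 of 17).

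The number of peaks per gene, scaled to 100000 peaks of the list, did not separate the treatments for any of the 8 genes. The test was limma with trend on the log2 of the scaled number plus 0.5, over 14343 genes with a mean of at least 2 peaks per library. It called 0 of 14343 genes at an adjusted p of 0.05 (0% of genes, Benjamini-Hochberg) for RANKL and for RANKL + I-BET against untreated, for adding I-BET to RANKL, for I-BET alone against untreated, and for the interaction of both agents. At an unadjusted p of 0.05 it passed 372, 270, 98, 358 and 318 genes in that order, and none of the 8 in any of them. With 2 libraries against 2, an exact permutation test of a single gene cannot go below p = 0.333, two-sided.

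**Figure D1:**
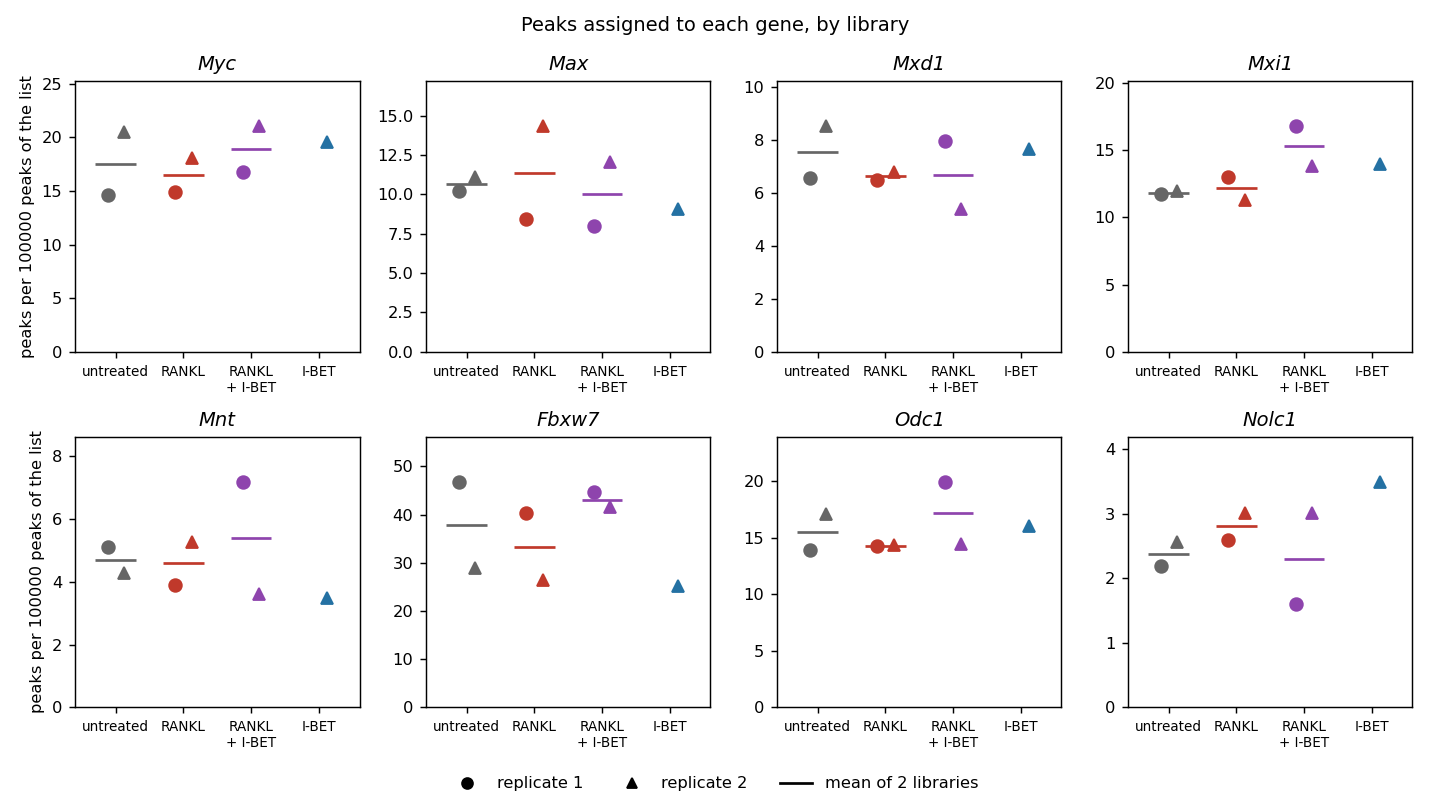
Peaks assigned to each gene per 100000 peaks of the list (y axis, from 0), by treatment (x axis); circles are replicate 1, triangles replicate 2 and lines the mean of 2 libraries, and I-BET has 1 library. For Myc the untreated libraries (14.6 and 20.5) span the RANKL libraries (14.9 and 18.1), and for Fbxw7 the replicate 1 libraries lie at 40.2 to 46.8.

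For Myc the scaled number of peaks was 14.6 and 20.5 in the untreated libraries, 14.9 and 18.1 with RANKL, 16.8 and 21.0 with RANKL + I-BET and 19.6 with I-BET. The groups overlapped, and the replicate 2 library was the higher one in each pair. The log2 difference for Myc was −0.07 (SE 0.30) for RANKL against untreated, 0.19 (SE 0.30) for RANKL + I-BET against RANKL and 0.17 (SE 0.37) for I-BET against untreated, all at adjusted p of 0.995 or above by limma.

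Max, the partner that Myc and its antagonists share, had 10.2 and 11.1 peaks per 100000 in the untreated libraries, 8.44 and 14.3 with RANKL, 7.98 and 12.02 with RANKL + I-BET and 9.08 with I-BET. The RANKL libraries of Max spanned the untreated ones. Mxd1, an antagonist known to rise as cells differentiate, had 6.58 and 8.53, 6.49 and 6.79, 7.98 and 5.41, and 7.68 in the same order, and Mnt, the most widely expressed antagonist, had 5.12 and 4.27, 3.89 and 5.28, 7.19 and 3.61, and 3.49. For both genes the 2 RANKL + I-BET libraries lay near opposite ends of the range of the 7 libraries. Covered bases did not follow the number of peaks. RANKL + I-BET replicate 2, near the low end by peaks, had the most of the 7, with 7336 bp at Mxd1 and 12570 bp at Mnt. At Mnt the RANKL + I-BET libraries called 5 regions each, with 9 peaks in replicate 1 and 6 in replicate 2. Mxi1 had 11.7 and 11.9 in the untreated libraries, 13.0 and 11.3 with RANKL, 16.8 and 13.8 with RANKL + I-BET and 14.0 with I-BET. Both RANKL + I-BET libraries of Mxi1 lay above both untreated and both RANKL libraries, by a log2 difference of 0.35 (SE 0.29, limma adjusted p = 0.997) over untreated, and at a −log10 q of at least 5 the difference was −0.04.

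Among the targets, the untreated libraries of Odc1 spanned the RANKL ones, and those of Nolc1 lay below them. Odc1 had 13.9 and 17.1 in the untreated libraries, 14.3 and 14.3 with RANKL, 19.96 and 14.4 with RANKL + I-BET and 16.1 with I-BET, so that both RANKL + I-BET libraries lay above both RANKL libraries, 1 of them narrowly. Nolc1 had 2.19 and 2.56 in the untreated libraries and 2.60 and 3.02 with RANKL, a small gap on 3 and 3 against 4 and 4 peaks. It had 1.60 and 3.01 with RANKL + I-BET and 3.49 with I-BET. The log2 difference for Nolc1 was 0.20 (SE 0.44, limma adjusted p = 0.995) for RANKL against untreated and −0.28 (SE 0.44, limma adjusted p = 1.0) for RANKL + I-BET against RANKL, both smaller than their error.

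Peaks of the Myc locus lay mostly on 1 side of the gene. Of its 52 regions 2 were in the gene body (chr15:61985341-61990361), 7 on the lower-coordinate side and 43 on the higher-coordinate side. Of the 43, 26 overlapped Pvt1, a long noncoding RNA gene that begins 52.6 kb from the lower end of Myc. Pvt1 also held 5 of the 7 Myc regions called in all libraries. The other 2 were the region over the gene start and one 7979 bp past the higher end.

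The region over the gene's lower end (chr15:61983067-61988519) had a −log10 p of 78.6 and 87.6 in the untreated libraries, 88.7 and 103 with RANKL, 116 and 338 with RANKL + I-BET and 41.9 with I-BET. It stood in the top 6.66% to 11.9% of each list. The largest −log10 p of a Myc region in any list was distal, at chr15:62078661-62080674 in Pvt1, 88300 bp past the gene. There −log10 p was 42.7 and 215 in the untreated libraries, 207 and 267 with RANKL, 191 and 934 with RANKL + I-BET and 65.9 with I-BET. This distal region outranked the region at the gene's lower end in every list except that of untreated replicate 1, where it stood in the top 9.37% against 6.66%. In RANKL replicate 1 another Pvt1 region, chr15:62043143-62045442, was the stronger one (237 against 207), and in RANKL + I-BET replicate 1 both had 191.

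**Figure D2:**
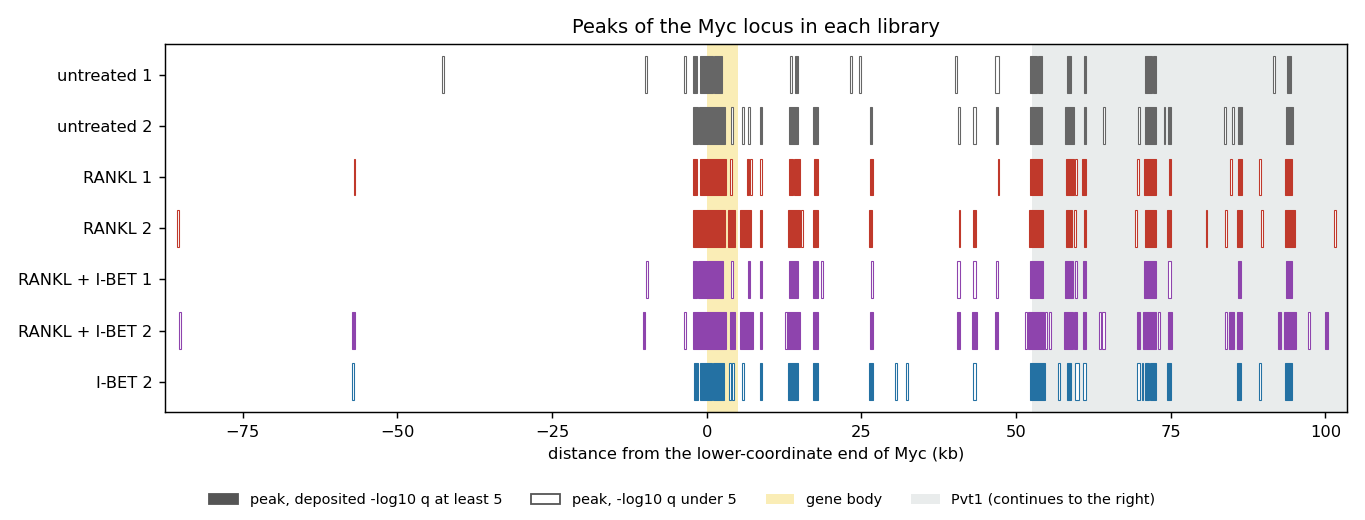
Peaks of the Myc locus in the 7 libraries (rows) by distance from the lower-coordinate end of Myc in kb; filled boxes have a deposited −log10 q of at least 5, open boxes a lower one, and very narrow peaks are drawn at a minimum visible width. The gene body is yellow and Pvt1 grey; the columns of boxes present in all rows are the 7 regions shared by all libraries, 5 of them in Pvt1.

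A further 7 Myc regions were called in 6 libraries, and all 7 were missing from untreated replicate 1. In the series 76.4% of regions called in 6 libraries were missing from that library (13704 of 17940). One of them, chr15:62002516-62003392, had a −log10 p of 76.5 in untreated replicate 2. The value was 21.2 and 62.7 with RANKL, 17.2 and 283 with RANKL + I-BET and 40.3 with I-BET. Since −log10 p grows with depth, these values do not order the libraries.

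Beyond the limit of 100 kb lay 187 more regions with Myc as the nearest protein-coding gene, out to 887072 bp, and 20 of them were called in all 7 libraries. Max had 8 such regions and Fbxw7 93, with 1 region of each called in all 7. Just inside the limit, chr12:77059834-77060851 lay 97511 bp from Max and was called in all 7 libraries. Just outside, the nearest region of Fbxw7 lay at 100940 bp (1 library) and that of Myc at 101050 bp (2 libraries).

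The next comparison was RANKL against untreated, which asks what the cytokine alone changes in 4 h. Regions that both RANKL libraries called and neither untreated one did were named RANKL-only. They made up 8 of the 248 regions of the 8 genes called in these libraries (3.23%), and 3.37% of all regions of the series. The share was near the background. Nolc1 had 3 of them, Mxi1 2, and Max, Fbxw7 and Odc1 1 each, while Myc, Mxd1 and Mnt had none. Regions called in both untreated libraries only were 1 of 248 (0.403%), against 0.748% in the series.

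Calls of this kind move with single libraries. Without untreated replicate 1 the RANKL-only count was 10 of 194 (5.15%, series 5.58%), without untreated replicate 2 it was 29 (12.4%, series 13.2%), without RANKL replicate 1 it was 30 (13.95%, series 16.03%) and without RANKL replicate 2 it was 41 (18.1%, series 23.9%). The untreated-only count was 15 without untreated replicate 1 (7.73%, series 9.13%), 55 without untreated replicate 2 (23.5%, series 26.2%) and 6 without RANKL replicate 1 (2.79%, series 1.54%). With fewer libraries to satisfy, the shares of the series moved as well. The single untreated-only region, chr3:85057259-85057491 at Fbxw7, had a −log10 p of 4.14 and 2.57.

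Nolc1, a nucleolar phosphoprotein that chaperones ribonucleoprotein assembly, had 3 RANKL-only regions among its 10. Of the 10, 7 were called in the untreated or RANKL libraries. The region chr19:46086234-46086799, 691 bp past the end of the gene, had a −log10 p of 7.10 and 10.1 in the RANKL libraries. The I-BET library (5.57) and RANKL + I-BET replicate 2 (63.2) called it too, and RANKL + I-BET replicate 1 did not. The regions chr19:46078750-46079005, in the gene, and chr19:46088189-46088622, 2646 bp past it, had a −log10 p between 3.44 and 4.99 in the RANKL libraries and were called in no library with I-BET. The start of Nolc1 itself was called in all 7 libraries, at 272 and 145 in the untreated libraries, 188 and 145 with RANKL, 342 and 551 with RANKL + I-BET and 61.0 with I-BET.

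Mxi1 had 2 RANKL-only regions. In chr19:53362854-53363438, inside the gene, −log10 p was 7.79 and 10.1 with RANKL, 6.07 and 24.0 with RANKL + I-BET and 3.79 with I-BET. In chr19:53280997-53281513, 28615 bp below the gene, it was 3.99 and 2.90 with RANKL and 7.43 and 6.73 with RANKL + I-BET. The first was thus also called under I-BET without RANKL, and the second was called in the 4 libraries with RANKL and in no other.

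Fbxw7, Odc1 and Max each had 1 RANKL-only region. The Fbxw7 region (chr3:84830399-84830885) lay in the gene, with a −log10 p of 4.56 and 4.26 with RANKL and 6.73 and 20.6 with RANKL + I-BET. The Odc1 region (chr12:17513640-17514638) lay 30170 bp below the gene, with 2.93 and 4.99 with RANKL and 3.65 and 20 with RANKL + I-BET. Max had chr12:77020010-77020484, 57687 bp beyond the gene, with 5.78 and 4.26 with RANKL and 9.06 in RANKL + I-BET replicate 2 only. In the RANKL lists the 8 RANKL-only regions ranked from the top 40.8% to the top 96.1%.

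Counting only peaks with a deposited −log10 q of at least 5 gave another picture of RANKL against untreated. By that rule 10 of 94 regions (10.6%) were strong in each RANKL library and in no untreated one, against 4.42% in the series. Mxi1 and Odc1 had 3 each, Fbxw7 2, and Myc and Nolc1 1 each. Of the 10 regions, 8 had a weaker peak in at least 1 untreated library. At Myc the region was chr15:61990702-61992768, 341 bp past the gene, with a −log10 q of 4.45 in untreated replicate 2, no peak in untreated replicate 1, 11.9 and 16.2 with RANKL, 6.86 and 72.4 with RANKL + I-BET and 1.17 with I-BET. At Odc1 the region chr12:17542296-17543126 had 4.45 in untreated replicate 2, 7.23 and 14.1 with RANKL, 7.59 and 63.0 with RANKL + I-BET and 1.17 with I-BET. In 6 of the 10 regions an untreated value lay just under the limit, between 4.45 and 4.87. Strong peaks were scarcest in untreated replicate 1 (25.3% of its list), and the part of that library in this count was not tested.

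Odc1, the rate-limiting enzyme of polyamine synthesis, had its strongest distal region at chr12:17509475-17511920, 32888 bp below the gene and called in all 7 libraries. Its −log10 p was 24.6 and 135 in the untreated libraries, 319 and 247 with RANKL, 218 and 1419 with RANKL + I-BET and 95.5 with I-BET. At the start of Odc1 the values were 416 and 145, 325 and 219, 560 and 802, and 69.3 in the same order. The distal region outranked the start of the gene in RANKL replicate 2, RANKL + I-BET replicate 2 and the I-BET library, and the start outranked it in the other 4. The start thus came first in both untreated libraries, and the RANKL and RANKL + I-BET pairs were each split. The lists with the distal region first were all treated and all of replicate 2. Untreated replicate 2 shares that number, and the replicate 1 libraries of RANKL and RANKL + I-BET were treated, yet all of these had the start first. The I-BET group has only a library numbered 2. The parts of treatment and replicate number in this order were not tested.

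**Figure D3:**
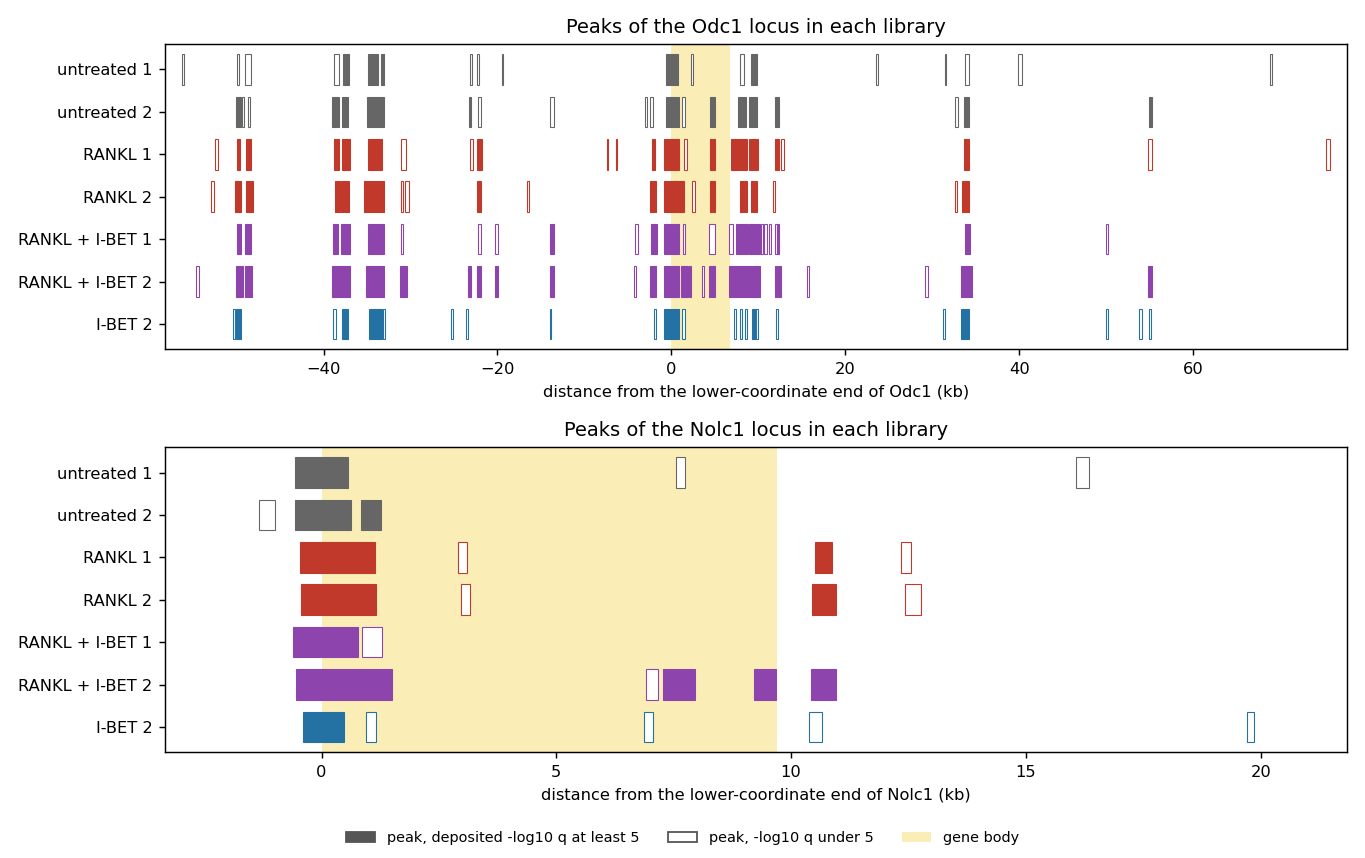
Peaks of the Odc1 and Nolc1 loci in the 7 libraries (rows) by distance from the lower-coordinate end of each gene in kb; filled boxes have a deposited −log10 q of at least 5, open boxes a lower one, very narrow peaks are drawn at a minimum visible width, and the gene body is yellow. At Nolc1 the boxes past the gene at 691 bp are absent from both untreated libraries and from RANKL + I-BET replicate 1.

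RANKL + I-BET against RANKL asks what the BET inhibitor adds. Of 271 regions of the 8 genes, 10 (3.69%) had a call in each RANKL + I-BET library and in no RANKL library, against 1.86% in the series. Fbxw7 had 7 and Odc1 3, and the other 6 genes had none. Regions called in both RANKL libraries only were 2 of 271 (0.738%, series 0.571%), the 2 of Nolc1 given above. The higher share of the first kind depended on the setting. With a −log10 q of at least 5 the count was 2 of 129 (1.55%), against 1.47% in the series, and with lists of equal length it was 3 of 204 (1.47%), against 1.41%. With peaks covering 50% of the region it was 10 of 268 (3.73%), against 1.73%.

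The 7 Fbxw7 regions lay outside the gene, 3 below it and 4 beyond it. Their −log10 p was 3.11 to 7.43 in RANKL + I-BET replicate 1 and 2.65 to 6.30 in replicate 2. Of the 7, 3 were also called in untreated replicate 1. At Odc1, chr12:17530795-17531285, 13523 bp below the gene, had 8.14 and 21.3 with RANKL + I-BET, 3.79 with I-BET and 4.69 in untreated replicate 2. The other 2 Odc1 regions, chr12:17524540-17524885 and chr12:17540549-17540961, were called in the 2 RANKL + I-BET libraries alone, at 3.11 to 7.63.

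The count of 10 became 64 without RANKL + I-BET replicate 1 (26.3%, series 20.6%), 38 without RANKL + I-BET replicate 2 (17.5%, series 13.5%), 19 without RANKL replicate 1 (8.05%, series 4.87%) and 14 without RANKL replicate 2 (5.51%, series 4.05%). The share of the 8 genes was above that of the series each time. Each of these counts includes the same 10 regions, 7 of them at Fbxw7, so they are not separate checks. The count of 2 became 10 without RANKL + I-BET replicate 2 (4.61%, series 6.90%), 19 without RANKL replicate 1 (8.05%, series 8.15%) and 37 without RANKL replicate 2 (14.6%, series 17.95%). RANKL + I-BET replicate 2 had the longest list, and its part in these counts was not tested.

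Of the 8 genes Fbxw7 had the widest range in the number of peaks between libraries, though Nolc1 and Mnt, with few peaks, ranged more widely as a ratio. Fbxw7 had 64 and 34 peaks in the untreated libraries, 62 and 35 with RANKL, 56 and 69 with RANKL + I-BET and 36 with I-BET. The 3 replicate 1 libraries and RANKL + I-BET replicate 2 were high, and the other 3 were low. Between the 2 untreated and between the 2 RANKL libraries the difference lay mostly beyond the higher end of the gene. Peaks there numbered 26 and 5, 23 and 5, 15 and 19, and 4 in the same order. Of these, 0 to 6 per library had a −log10 q of at least 5. Inside the gene there were 26 to 43 peaks per library. RANKL + I-BET replicate 2 had the 43, of which 28 had a −log10 q of at least 5, and untreated replicate 2 had the 26. By limma the log2 difference was 0.40 (SE 0.31, adjusted p = 1.0) for RANKL + I-BET against RANKL and −0.54 (SE 0.38, adjusted p = 0.999) for I-BET against untreated, and the interaction was 0.94 (SE 0.49, unadjusted p = 0.0856, adjusted p = 1.0). The first value was 0.70 without RANKL replicate 1 and 0.097 without RANKL replicate 2, and the second was −0.20 without untreated replicate 1 and −0.88 without untreated replicate 2. The only I-BET library has the number 2, and against untreated replicate 2 its scaled number was 25.1 against 29.0.

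**Figure D4:**
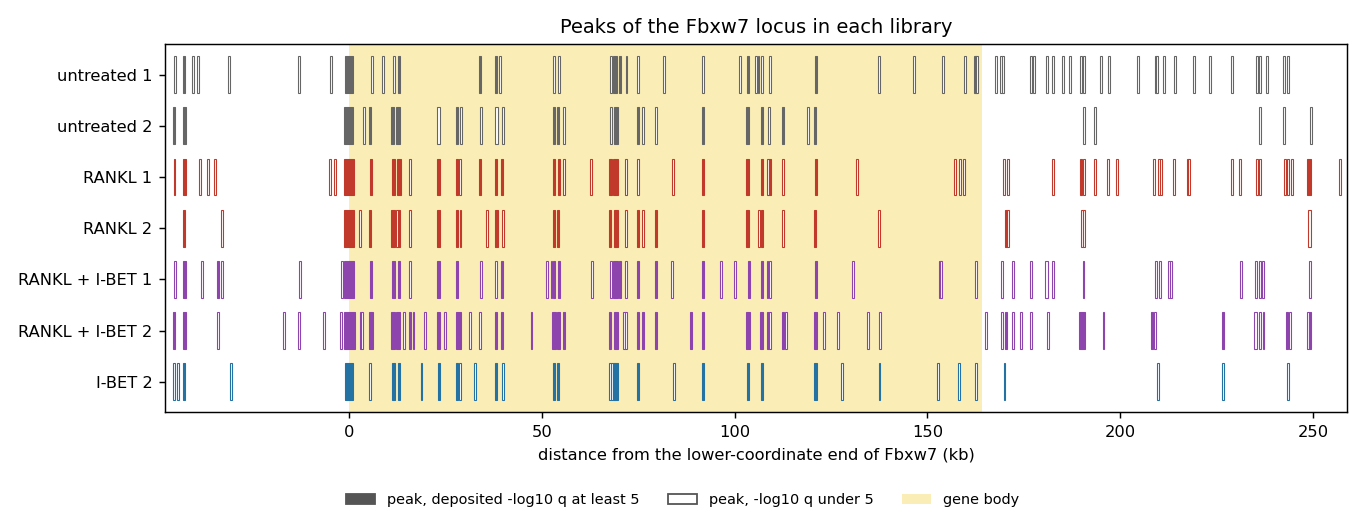
Peaks of the Fbxw7 locus in the 7 libraries (rows) by distance from the lower-coordinate end of Fbxw7 in kb; filled boxes have a deposited −log10 q of at least 5, open boxes a lower one, very narrow peaks are drawn at a minimum visible width, and the gene body is yellow. Past the gene, open boxes are dense in untreated replicate 1 (26 peaks) and RANKL replicate 1 (23) and sparse in untreated replicate 2, RANKL replicate 2 (5 each) and I-BET (4).

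RANKL + I-BET against untreated, which joins both agents, gave 10 of 284 regions (3.52%) called with RANKL + I-BET only, against 3.73% in the series. Fbxw7 had 5, Odc1 3 and Mxi1 2. The reverse held for 1 of 284 (0.352%, series 0.458%), the Fbxw7 region named above. Among peaks with a −log10 q of at least 5 the first count was 10 of 129 (7.75%), against 4.06% in the series, with 4 at Fbxw7, 3 at Odc1, 2 at Mxi1 and 1 at Myc, the region 341 bp past the gene. Most of these 10 regions had a weaker peak in an untreated library. Several untreated values lay just under the limit, such as 4.45 at the Myc region and 4.87 at chr12:17495749-17496671 of Odc1. Strong peaks were most frequent in RANKL + I-BET replicate 2 (74.0% of its list), and the part of that library in this count was not tested. Both RANKL against untreated and this comparison use the untreated libraries. The count of 10 became 18 without untreated replicate 1 (7.76%, series 6.50%), 33 without untreated replicate 2 (12.2%, series 12.3%), 70 without RANKL + I-BET replicate 1 (27.5%, series 26.04%) and 39 without RANKL + I-BET replicate 2 (17.4%, series 15.9%). The count of 1 became 15 (6.47%, series 6.21%), 53 (19.6%, series 24.2%), 1 (0.392%, series 0.592%) and 3 (1.34%, series 2.35%) in the same order.

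**Figure D5:**
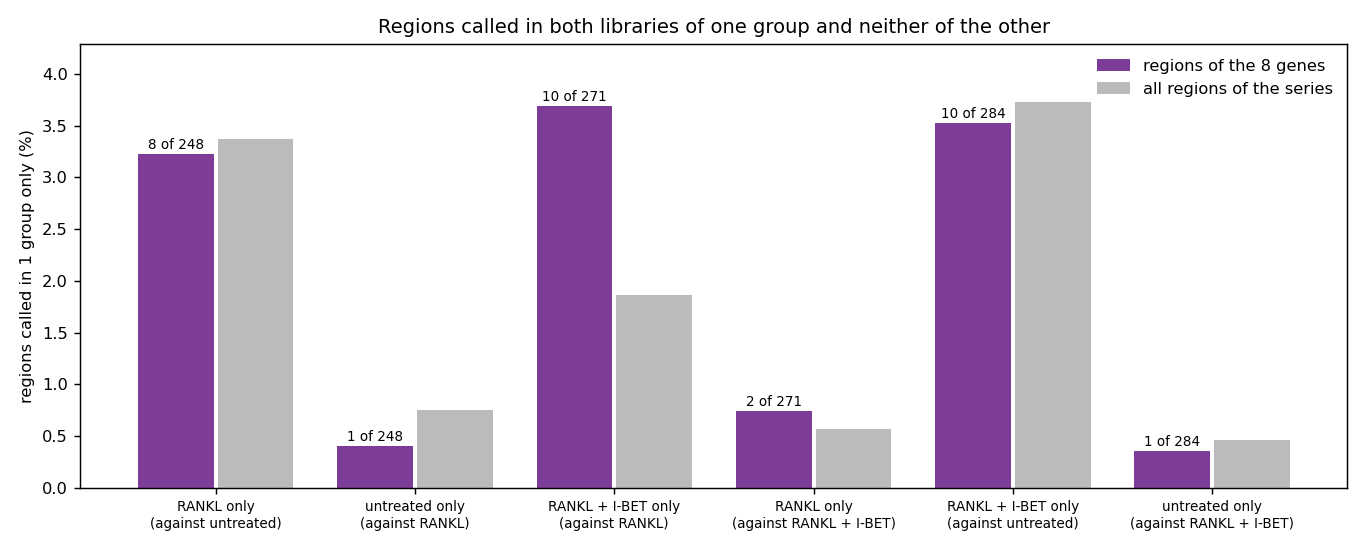
Share of regions that both libraries of 1 group called and no library of the other did (y axis, percent, from 0) for the 8 genes (purple, with counts) and all regions of the series (grey), in the 3 comparisons of 2 libraries with 2. The shares lie close together except for RANKL + I-BET only against RANKL, 3.69% against 1.86%.

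Of the 8 RANKL-only regions 4 had a call in both libraries with I-BET added (50.0%), 2 in 1 of them and 2 in none, and in the series 37.4% of RANKL-only regions had a call in both. In the I-BET library 2 of the 8 were called (25%, series 32.1%). A further pattern, looked at after the calls had been seen, was presence in all 4 libraries with RANKL and in no other. It held for 3 of 351 regions (0.855%, series 0.529%), 1 each at Mxi1, Fbxw7 and Odc1, given above. Presence in all 3 libraries with I-BET and in no other held for 0 of 351 (series 0.142%).

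I-BET without RANKL had 1 library, so its calls have no replicate check. Against untreated replicate 2, the untreated library of the same number, 41 of 153 regions (26.8%) were called with I-BET only and 38 (24.8%) in the untreated library only. In the series these shares were 33.6% and 20.5%. Against RANKL + I-BET replicate 2, 31 of 215 regions (14.4%) were called with I-BET only, against 20% in the series, and 100 (46.5%) with RANKL + I-BET only, against 38.5%.

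The wider Myc pathway was taken from a list of 58 genes, all in the table. Of their 641 regions called in these libraries 13 (2.03%) at 10 genes were RANKL-only and 5 untreated-only. With RANKL + I-BET against RANKL, 12 of 678 (1.77%) were called with both agents only and 1 with RANKL only. With RANKL + I-BET against untreated, 27 of 711 (3.80%) at 18 genes were called with both agents only and 3 in untreated cells only. Each share of the whole list was near the background given above or below it.

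By role, the 11 partner and network genes had 4 RANKL-only regions of 107 (3.74%, series 3.37%), and the 13 cofactor and turnover genes 3 of 189 (1.59%). The 16 ribosome and translation genes had 3 of 123 (2.44%), all at Eif4e, the cap-binding translation factor, and the 18 growth, metabolism and cell cycle genes had 3 of 222 (1.35%). With both agents against RANKL the 4 groups had 2 of 112 (1.79%), 6 of 186 (3.23%), 1 of 143 (0.699%) and 3 of 237 (1.27%) in that order, against 1.86% in the series. With both agents against untreated they had 5 of 116 (4.31%), 14 of 203 (6.90%), 5 of 146 (3.42%) and 3 of 246 (1.22%), against 3.73%. The cofactor and turnover genes thus had the highest share of the 4 groups in both comparisons, which was not tested. Of the RANKL-only regions, Usp28, a deubiquitinase that stabilizes Myc, had 2. With both agents against RANKL, Trrap, a scaffold of histone acetyltransferase complexes that Myc recruits, had 2 of the 12 regions. With both agents against untreated, Eif4e, Trrap and Wdr5, a histone methyltransferase subunit that binds Myc, had 3 each, and Bop1, a ribosome biogenesis factor, had 2. Usp28 and Skp2, a ubiquitin ligase subunit, also had 2 each, and are named here after their values were seen. By limma 0 of the 56 list genes tested were called in any comparison.

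The genes whose scaled number of peaks went most like that of Myc over the 7 libraries were Aldh3b3 (Pearson r = 0.99), Eif4enif1 (r = 0.98) and Larp4b (r = 0.98), and 192 of 14342 genes had an r above 0.9. These values are descriptions, since the 7 points share library depth and list length. Among the network genes r with Myc was 0.51 for Nolc1, 0.44 for Max, 0.21 for Odc1, 0.08 for Mxd1, 0.07 for Mxi1, −0.41 for Mnt and −0.56 for Fbxw7.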

How the data were processed

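ATAC-seq peaks of 7 libraries in 4 groups were used. Each library has its own deposited list, which means that calling was done sample by sample. The submitters' processing notes name MACS2, Bowtie2, cutadapt, FastQC, Picard, SAMtools and bedtools, with mm10 as the build, and state neither versions nor settings. Each deposited line holds a score, a fold enrichment (a ratio), a −log10 p-value, a −log10 q-value and a summit offset. Depth is not given in the files, so the precision of a call rests on the number of peaks and of libraries.

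Peaks were joined where they overlapped or touched, and a library called a region when it had a peak in it. Gene bodies came from a RefSeq table of GRCm38.p6, matched by symbol with bedtools 2.31.1, pandas 2.3.3 and python 3.11.15. A peak inside a gene body went to that gene, and any other to the nearest protein-coding gene within 100 kb. Where gene bodies overlapped, the peak went to one of the 8 genes if it lay inside it, and otherwise to the shortest gene. The 8 genes thus had a priority that the other genes tested did not have. Signal changes inside regions that both groups called were not measured. Regions that both libraries of 1 group called and no library of the other did were counted, with no test, beside the same share over all regions. Peaks per gene were scaled to 100000 peaks of the list and tested on log2 (value + 0.5) with limma 3.58.1 in R 4.3.3, in 1 fit of all 7 libraries with the 4 groups, for genes with a mean of at least 2 peaks. The single I-BET library was assumed to vary like the others. P-values were adjusted by Benjamini-Hochberg over all genes tested. The fit was tried on simulated numbers of peaks, with changed genes drawn only among genes with more peaks than Nolc1 or Mnt had. That trial does not tell how well a change at genes with few peaks would be found. Samples were grouped by the treatment label. The named genes were the 8, pathway genes with at least 2 regions of a class (at most 4 per class) or called by limma, and the 3 genes most like Myc. The genes, lists and alternatives were chosen with earlier results of these data known. Other settings tried were a limit of 50 kb, a −log10 q minimum of 5, the 117175 strongest peaks of each list (equal lists), 50% cover of a region by peaks, covered bases in place of peaks, a pseudocount of 1, equal medians over libraries, no filter on low values, a replicate block and leaving out each library. Sequences of regions were not analysed here.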

Additional observations from a re-analysis of the deposited data

How the results depend on the processing

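limma called 0 genes in each of the 4 comparisons of peaks per gene under every alternative and with each library left out. The lowest adjusted p of the gene values reported for Myc and for the lowest and highest of the 8 genes was 0.814 over the other alternatives and 0.491 with a library left out. Same-numbered libraries deviated together from their group means (r = 0.36, 0.20 and 0.32 over genes for the 3 pairs of groups), but there are only 2 numbers and the labels do not say what they mark. With the replicate block limma again called 0 genes, with 753, 232, 587 and 849 at an unadjusted p of 0.05, and it changed no call. The value of Fbxw7 in I-BET against untreated was −0.31 with the block.

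None of these gene differences passed a threshold, and 13 of 93 values changed sign under the alternatives. With covered bases the log2 difference was 0.11 for Myc in RANKL against untreated, 0.020 for Mxd1 in RANKL + I-BET against untreated and −0.12 for Nolc1 in I-BET against untreated. With a −log10 q of at least 5 it was 0.20 for Fbxw7 in RANKL against untreated, −0.092 for Myc in RANKL + I-BET against RANKL, −0.33 for Myc and −0.044 for Mxi1 in RANKL + I-BET against untreated, and 0.19 for Fbxw7 in I-BET against untreated. Within 50 kb Myc had −0.038 in RANKL + I-BET against untreated and −0.024 in I-BET against untreated, and with the replicate block −0.0058 in the latter. With lists of equal length Mxd1 had 0.018 in RANKL + I-BET against untreated and Nolc1 −0.24 in I-BET against untreated. With a library left out, Myc ran from −0.31 to 0.16 in RANKL against untreated, −0.12 to 0.35 in RANKL + I-BET against untreated and −0.065 to 0.41 in I-BET against untreated. Fbxw7 ran from −0.52 to 0.17 in RANKL against untreated, Mxd1 from −0.44 to 0.085 in RANKL + I-BET against untreated and Nolc1 from −0.65 to 0.087 in RANKL + I-BET against RANKL. The cause was not tested.

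Region counts of the 8 genes moved more. RANKL-only regions numbered 8, and 10 to 41 with a library left out. They numbered 4 with lists of equal length (1.84%, series 2.86%) and 11 with peaks covering 50% of the region (4.74%, series 3.68%). Untreated-only regions against RANKL numbered 1, 0 with a −log10 q of at least 5 or within 50 kb, and 1 to 55 with a library left out. With peaks covering 50% of the region they numbered 2 (0.862%, series 0.477%). RANKL + I-BET-only regions against RANKL numbered 10, 2 with the −log10 q limit, 3 with equal lists, and 14 to 64 with a library left out; the reverse numbered 2, 0 with the −log10 q limit or equal lists, 1 with 50% cover, and 2 to 37 with a library left out. RANKL + I-BET-only regions against untreated numbered 10, and 18 to 70 with a library left out. They numbered 4 with equal lists (1.79%, series 2.95%) and 14 with 50% cover (5.02%, series 3.92%). The reverse numbered 1, 0 with the −log10 q limit or within 50 kb, and 1 to 53 with a library left out. Leaving out a library asks for fewer calls, which raises the counts by construction. The other causes were not tested, and depth cannot be set equal from peak lists.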
